A study of Mus musculus with 22 samples.

Results

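The effect of adding the PARP inhibitor ABT-888 to ethanol on the total RNA of the mouse prefrontal cortex (PFC) was described from 8 of the 22 libraries of the series: 4 EtOH + ABT-888_total-RNA libraries (mice 3, 6, 10 and 11) and 4 EtOH_total-RNA libraries (mice 2, 5, 8 and 9). The members were chosen by their labels alone, and no measured value entered the choice. EtOH mice received ethanol by intraperitoneal injection, 2 injections per day for 4 days, adding up to 2 g/kg each day. EtOH + ABT-888 mice had the same ethanol and in addition 25 mg/kg ABT-888, given together with ethanol on day 4 only. All mice were killed 2 h after the last injection. The 3 Control_total-RNA libraries (mice 1, 4 and 7) are from mice given saline by the same route and schedule, with neither ethanol nor ABT-888, and serve as background. Every mouse, Control included, was a male of 8 to 12 weeks on a C57BL/6J background and carried 2 transgenes, CaMKIIα-tTA and tetO-EGFP/Rpl10a. Together these put an EGFP tag on ribosomal protein L10a in cells in which the CaMKIIα promoter is active, which in cortex are mostly excitatory neurons. The tag serves the matched TRAP libraries, made from RNA pulled down with tagged ribosomes. The total-RNA libraries were made from the lysate before the pulldown, so they hold RNA of every cell type in the dissected tissue, and fewer cells of a type cannot be told apart from less RNA per cell. The methods describe no vehicle injection for ABT-888 in the EtOH group and no group given ABT-888 without ethanol, so ABT-888 is seen only against a background of ethanol.

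Poly(ADP-ribose) polymerases (PARPs) use NAD+ to attach ADP-ribose units, singly or as chains, to proteins. PARP1, the most active of them, binds DNA breaks, recruits base excision and single-strand break repair proteins through these chains, and also sits on chromatin, where it affects transcription of genes for stress, inflammation and neuronal activity. ABT-888 (veliparib) occupies the NAD+ pocket of PARP1 and PARP2 and blocks the enzymes. Ethanol is oxidised to acetaldehyde and acetate, raises circulating glucocorticoids, and alters inflammatory signalling in brain. The comparison therefore asks how far ABT-888, given on the last day only, moved the steady-state mRNA of ethanol-treated PFC.

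The 8 libraries held 22132534 to 32421392 assigned read counts and were of like depth in both groups. Levels are given as CPM (counts relative to the library total) scaled by TMM factors, which are not corrected for gene length, and fold changes as log2 of EtOH + ABT-888 over EtOH with their standard error. Log2 CPM correlated across genes at r = 0.971 to 0.990 over the 16 pairs of an EtOH + ABT-888 with an EtOH library, at 0.959 to 0.988 over the 6 pairs within EtOH + ABT-888 and at 0.978 to 0.985 over the 6 pairs within EtOH. Libraries of different groups were thus about as alike as libraries of the same group. Along the first principal component, which took 39% of the variance among the 8 libraries, the ends were both EtOH + ABT-888 libraries, mouse 3 at -33.0 and mouse 10 at 43.7. The median within-group SD of a gene was 0.247 on the log2 scale in EtOH + ABT-888, 0.214 in EtOH and 0.127 in Control. Without mouse 10 the EtOH + ABT-888 value was 0.182, and the share of genes with the larger SD in EtOH + ABT-888 went from 59% to 40.7%.

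In total RNA, no gene changed with ABT-888 past an adjusted p of 0.05 in edgeR's quasi-likelihood test: 0 of 14072 genes tested (0%). The smallest unadjusted quasi-likelihood p was 0.000119 and the smallest adjusted p was 1.00. An unadjusted p under 0.05 was reached by 269 genes (1.91%), fewer than the 5% a test gives at that level when nothing differs, with 118 higher (0.839%) and 151 lower (1.07%) in EtOH + ABT-888. Without EtOH + ABT-888 mouse 10 that count was 1274, more than 5% of the genes, while 0 genes passed the adjusted test. The lowest value of one group lay above the highest of the other for 103 genes higher (0.732%) and 92 genes lower (0.654%). When nothing differs, 4 against 4 libraries separate in either direction for a share of about 0.0286 of genes. Of the other tools, edgeR's exactTest and DESeq2 each called 2 genes (0.0142%), Htr2c and Baiap3, both lower, and limma-voom called 0, with 874 genes at an unadjusted p under 0.05. In the same kind of fit, EtOH differed from Control in 2482 of the 14072 genes (17.6%) and EtOH + ABT-888 differed from Control in 37 (0.263%). The last 2 comparisons share the Control libraries, and each shares 4 libraries with the comparison of the treated groups. A count past the test also depends on the spread within a group, with a median SD of 0.247 in EtOH + ABT-888 and 0.214 in EtOH. The 2 counts are therefore not a measure of how far each group lay from Control.

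The size of shift that the 8 libraries could show was set by level. The median log2 fold change over all genes was 0.00059 and 50.2% of genes were above 0 and 49.8% below. The median absolute log2 fold change was 0.099 and 95% of genes were under 0.41. An absolute log2 fold change over 1 was seen in 37 genes, of which 36 were in the lowest of 3 equal bins of genes by level, 1 in the middle bin and 0 in the highest. The 95% interval lay wholly within a 2-fold change either way (-1 to 1 on the log2 scale) for 13015 genes (92.5%), with 80% in the lowest bin and 99.5% in the highest. It lay within -0.5 to 0.5 for 7136 genes (50.7%). For the remaining genes a shift of more than 0.5 in at least 1 direction was not outside the interval at this depth and spread.

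**Figure D1:**
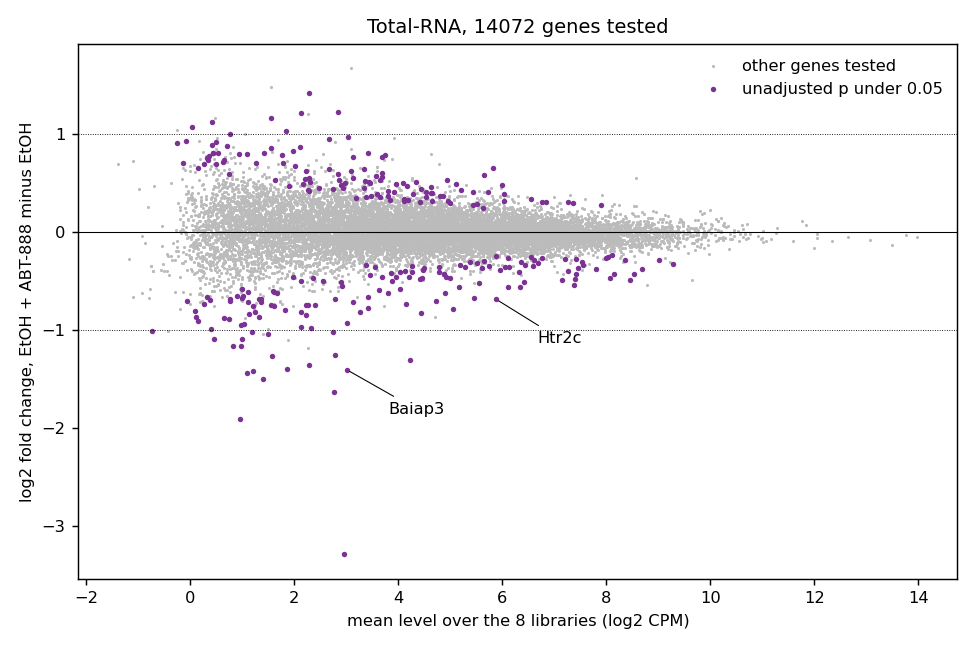
Each point is 1 of the 14072 genes tested, with its mean level over the 8 libraries (log2 CPM) on the x axis and its log2 fold change (EtOH + ABT-888 minus EtOH) on the y axis, genes at an unadjusted p under 0.05 in purple and dotted lines at -1 and 1. Of the 37 points beyond the dotted lines, 36 lie in the lowest bin by level, and Htr2c and Baiap3 are labelled.

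Htr2c, on the X chromosome, codes for the serotonin 2C receptor, a Gq-coupled receptor of neurons and choroid plexus. Its level was 77.5, 73.0, 63.1 and 73.8 CPM in EtOH mice 2, 5, 8 and 9, and 46.7, 37.6, 48.6 and 46.2 CPM in EtOH + ABT-888 mice 3, 6, 10 and 11. Every EtOH library was above every EtOH + ABT-888 library, and the Control libraries, at 35.9, 37.9 and 51.8 CPM, enclosed the range of the latter. The log2 fold change was -0.68 ± 0.12 (SE, n = 4 and 4, 95% interval -0.95 to -0.41), with an unadjusted quasi-likelihood p of 0.000119. The adjusted p was 0.0215 by exactTest, 0.00355 by DESeq2 and 0.631 by voom, so the call rests on the tool. Leaving out any 1 of the 8 libraries gave log2 fold changes of -0.74 to -0.61. Of the other serotonin receptors, Htr4 was lower by -0.47 ± 0.34, Htr2a higher by 0.35 ± 0.22 and Htr1a higher by 0.11 ± 0.23, none at an unadjusted p under 0.05, and over the 11 tested receptors 5 were higher, 6 lower and Htr2c alone at an unadjusted p under 0.05, beside 1.07% of all genes.

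Baiap3, a C2-domain protein of the Munc13 family with a part in dense-core vesicle traffic, was the other gene called by 2 tools. Its level was 13.96, 9.11, 6.91 and 16.2 CPM in EtOH and 4.91, 4.97, 2.83 and 4.72 CPM in EtOH + ABT-888, again with no overlap. Control was at 2.67, 3.02 and 8.73 CPM, so 1 Control library lay inside the EtOH range. The log2 fold change was -1.40 ± 0.28 (95% interval -2.02 to -0.79), with an unadjusted quasi-likelihood p of 0.000295 and adjusted p of 0.0215 by exactTest, 0.00599 by DESeq2 and 0.753 by voom. Baiap3 overlaps Tsr3 on the opposite strand, and since the counting is not stated to use strand, reads of these genes cannot be told apart. Baiap3 is also one of 15 genes listed as markers of septum, basal forebrain and hypothalamus, forebrain regions outside the PFC, and most of that list was lower too, as described next.

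The marker genes of septum, basal forebrain and hypothalamus were the only list of 51 whose per-library score did not overlap between the treated groups. The list was drawn up with earlier results of these data known. It holds Baiap3, Ecel1 and Hap1, which are also among the 12 lower genes named below. Its separation and its counts are therefore no independent support. Of 12 members tested, 1 was higher and 11 lower in EtOH + ABT-888, 7 of the lower ones at an unadjusted p under 0.05, where the background for lower genes is 1.07%. The median log2 fold change was -0.71, the widest of all lists. The summed level of all 15 members was 399.6, 260.6, 201.0 and 216.7 CPM in EtOH mice 2, 5, 8 and 9, 182.9, 200.7, 192.8 and 179.0 CPM in EtOH + ABT-888 mice, and 181.8, 169.8 and 212.0 CPM in Control. EtOH mice 2 and 5 were the highest, while EtOH mice 8 and 9 lay just above the highest EtOH + ABT-888 library (200.7 CPM) and close to the highest Control library (212.0 CPM). Without mice 2 and 5 the median of the list was -0.48, where removing the highest libraries of the higher group makes the difference smaller by construction. Ecel1, an endopeptidase of the neprilysin family, had 15.2, 14.4, 9.93 and 8.65 CPM in EtOH against 8.23, 5.67, 6.83 and 6.81 CPM in EtOH + ABT-888 (log2 fold change -0.81 ± 0.22). Hap1, which binds huntingtin and is rich in hypothalamus, had 119, 98.8, 79.4 and 85.9 CPM against 61.6, 65.4, 78.3 and 55.2 CPM (-0.56 ± 0.15). In both, the lowest EtOH value lay just above the highest EtOH + ABT-888 value. Zic2, a transcription factor of the septum, was the 1 member that was higher, at 0.04 ± 0.27. Since the score of these markers separated the groups, their level and the treatment cannot be told apart for the lower genes described next.

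The 12 protein-coding genes lower in EtOH + ABT-888 with the smallest p among those without overlap were Htr2c, Baiap3, Six3, Slc10a4, Stk32b, Dpyd, Slc5a7, Ecel1, Hap1, Papln, Lmo7 and Gad2. They have different roles. Slc5a7, the high-affinity choline transporter that feeds acetylcholine synthesis, was at 23.7, 24.1, 19.4 and 21.03 CPM in EtOH and 11.9, 9.35, 17.7 and 14.2 CPM in EtOH + ABT-888 (log2 fold change -0.73 ± 0.19). Slc10a4, a vesicle protein of cholinergic and monoaminergic neurons, was at 5.72, 7.35, 5.32 and 4.10 CPM against 3.04, 1.98, 3.45 and 3.05 CPM (-0.97 ± 0.25). In these, as in all 12 genes, that the EtOH libraries were the higher follows from the choice by non-overlap. Gad2, a glutamate decarboxylase that makes GABA, was at 442, 479, 392 and 380 CPM against 303, 278, 345 and 335 CPM (-0.43 ± 0.12), with Control at 294, 304 and 360 CPM. Six3, a transcription factor of developing striatal neurons with 2 antisense genes over it, was at 8.99, 11.96, 9.55 and 12.8 CPM against 6.81, 6.33, 5.87 and 7.35 CPM (-0.72 ± 0.18). EtOH was the group apart for both, and the EtOH + ABT-888 and Control values were interleaved. Without EtOH mice 2 and 5, Six3 was at -0.76, Slc5a7 at -0.61, Slc10a4 at -0.71, Gad2 at -0.29, Ecel1 at -0.43 and Hap1 at -0.35.

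Among the other lower genes, Lmo7, a LIM-domain protein of cell junctions, was at 157, 183, 161 and 158 CPM in EtOH, 89.1, 131, 125 and 125 CPM in EtOH + ABT-888 and 81.3, 89.7 and 90.6 CPM in Control (log2 fold change -0.49 ± 0.13). EtOH + ABT-888 mouse 3 was at the Control level and the other 3 mice lay between Control and EtOH. Dpyd, which degrades pyrimidines, was at 8.69, 6.84, 8.29 and 9.66 CPM against 4.84, 5.67, 5.33 and 4.99 CPM (-0.69 ± 0.18). Papln, an extracellular matrix glycoprotein, was at 2.55, 2.97, 2.68 and 2.67 CPM against 1.38, 1.63, 1.81 and 1.27 CPM (-0.84 ± 0.23). Stk32b, a protein kinase, was low in both groups, with 2.98 ± 1.24 CPM in EtOH and 1.104 ± 0.468 CPM in EtOH + ABT-888 (SD, n = 4 each). None of these passed the adjusted test.

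The 12 protein-coding genes higher in EtOH + ABT-888 by the same rule were Cracr2a, Cpne9, Tmco4, C130074G19Rik, Lct, Flt1, Paqr4, Rbp4, Slc13a4, Hist1h2bl, Stx1a and Lhfpl2, with unadjusted p of 0.00380 to 0.0199. Stx1a codes for syntaxin 1A, a plasma membrane SNARE of synaptic vesicle fusion. It was at 145, 138, 158 and 151 CPM in EtOH, 208, 172, 179 and 167 CPM in EtOH + ABT-888 and 249, 247 and 228 CPM in Control (log2 fold change 0.29 ± 0.11). The EtOH + ABT-888 libraries lay between the other groups, mouse 3 nearest to Control. Cpne9, a calcium-dependent phospholipid-binding copine with an antisense gene over it, had the same order, with 20.9, 23.2, 30.8 and 25.5 CPM in EtOH, 42.1, 32.6, 37.3 and 32.8 CPM in EtOH + ABT-888 and 59.0, 53.3 and 45.2 CPM in Control (0.53 ± 0.15). Flt1, the vascular endothelial growth factor receptor 1 of endothelium, was at 20.3, 20.7, 20.99 and 21.2 CPM against 32.5, 34.2, 25.0 and 22.7 CPM (0.46 ± 0.15). Its EtOH values were tight and its EtOH + ABT-888 values spread from just above them to well above. Paqr4, a membrane protein with a partly overlapping antisense gene (Pkmyt1), was at 24.1, 25.9, 25.0 and 26.6 CPM against 36.9, 30.1, 31.8 and 32.0 CPM (0.36 ± 0.12), with Control at 32.1, 33.2 and 32.5 CPM. Rbp4, the retinol carrier, was at 6.80, 6.33, 6.83 and 5.75 CPM against 10.4, 7.26, 9.01 and 9.68 CPM (0.50 ± 0.17), and Slc13a4, a sulphate transporter of meninges, at 11.0, 11.4, 7.71 and 11.0 CPM against 20.2, 11.7, 16.1 and 13.1 CPM (0.56 ± 0.20). For both, mouse 3 had the highest value of the 8. Among the rest, Lct, the lactase gene, was at 0.804 ± 0.405 CPM in EtOH, 1.73 ± 0.395 in EtOH + ABT-888 and 3.47 ± 0.237 in Control, and Cracr2a, a calcium-sensing Rab GTPase, at 0.930 ± 0.138 and 1.76 ± 0.297 CPM (SD). Tmco4, Hist1h2bl (a replication-dependent histone H2B gene, one of many near-identical copies and so of uncertain count), Lhfpl2 (overlapped by Gm15907) and C130074G19Rik differed by 0.80 ± 0.24, 0.89 ± 0.32, 0.42 ± 0.16 and 0.43 ± 0.14.

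**Figure D2:**
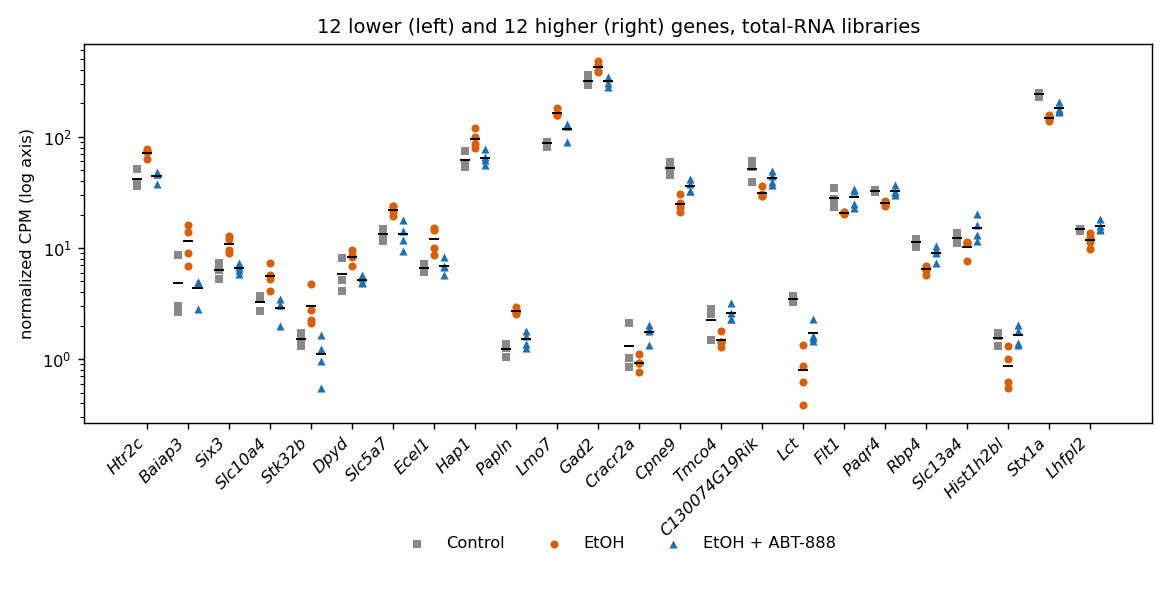
Normalized CPM (log axis) of the 12 lower (left) and 12 higher (right) genes in the 3 Control libraries and the 4 libraries of either treated group (total RNA), with a black line at each group mean. The genes were chosen for non-overlap of EtOH and EtOH + ABT-888, for example 63.1 to 77.5 against 37.6 to 48.6 CPM for Htr2c; Control sits with EtOH + ABT-888 for Gad2 and beyond it for Stx1a.

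Gene-set shifts were read from 51 lists, as the median log2 fold change of their tested members and as a score per library (the mean log2 CPM of the list relative to its mean over the 8 libraries). Medians were within 0.1 of 0 for 31 lists, between 0.1 and 0.2 for 12 and over 0.2 for 8, against a median of 0.00059 over all genes. The difference of score between the groups was larger than the pooled within-group SD for 8 lists: septum, basal forebrain and hypothalamus markers (-0.70, SD 0.33), striatal projection neuron markers (-0.32, SD 0.25), olfactory bulb markers (-0.25, SD 0.20), the genes chosen by the study for qRT-PCR (-0.21, SD 0.19), neuropeptides (-0.18, SD 0.18), excitatory neuron markers (0.14, SD 0.077), ethanol metabolism (0.13, SD 0.083) and the integrated stress and unfolded protein response (0.11, SD 0.096). In 7 of the 8 the libraries still overlapped. The qRT-PCR genes were picked by the study on these mice and are no independent evidence of a direction. Their median of -0.18 was 0.02 without mouse 3. Over the leave-one-out fits the median of 26 of the 51 lists took both signs, all but 2 of them (the qRT-PCR genes and the NF-κB and inflammation targets) lists with a median under 0.1 in size, so no direction is read from those.

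**Figure D3:**
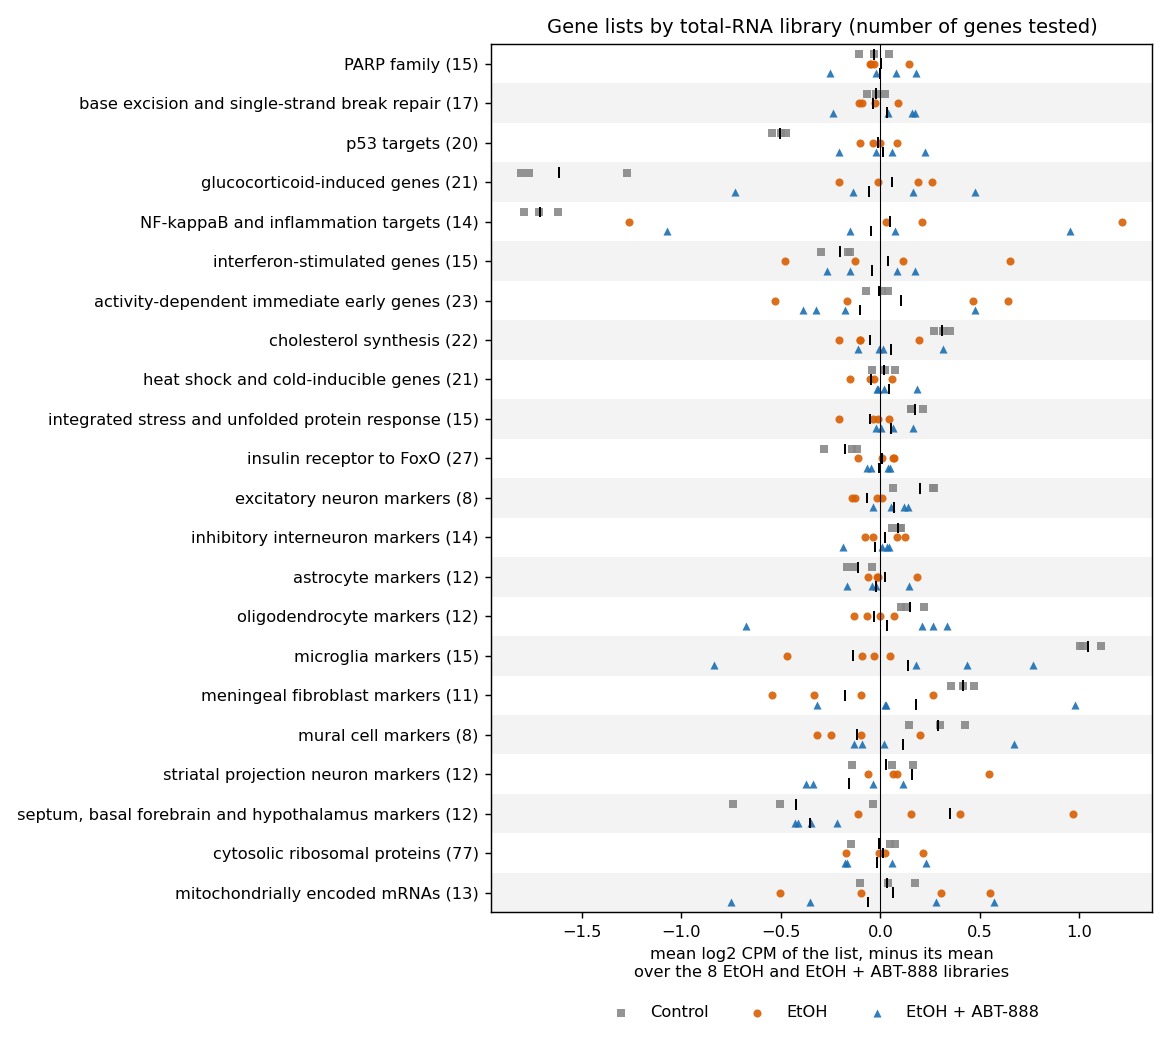
Score of 22 gene lists (mean log2 CPM of the list minus its mean over the 8 treated libraries, x axis) in each total-RNA library of Control, EtOH and EtOH + ABT-888, with the group mean as a black bar and the number of genes tested in brackets. EtOH and EtOH + ABT-888 points overlap in every list drawn except the septum, basal forebrain and hypothalamus markers, whose means were 0.35 and -0.35.

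Genes of the PARP family, to which the drug's targets PARP1 and PARP2 belong, showed no difference past the test. Of 15 PARP family members tested, 7 were higher and 8 lower, none at an unadjusted p under 0.05, with log2 fold changes from -0.34 to 0.37 and a median of -0.01, and all 15 intervals lay within a 2-fold change. Parp10 had too few counts to be tested. Parp1 was at 64.8, 42.8, 51.4 and 65.4 CPM in EtOH and 87.5, 79.6, 34.3 and 62.2 CPM in EtOH + ABT-888. The EtOH + ABT-888 values enclosed the EtOH range, with mouse 3 highest and mouse 10 lowest of the 8, and the log2 fold change was 0.23 ± 0.25 (95% interval -0.30 to 0.76). Parp2, the close relative that shares its response to DNA breaks, was at 12.6, 12.4, 10.3 and 11.5 CPM against 11.96, 12.7, 7.00 and 11.0 CPM (-0.14 ± 0.19), mouse 10 again being lowest. Of the tankyrases, which act at telomeres and in Wnt signalling, Tnks2 had an interval of -0.21 to 0.20 and Tnks of -0.34 to 0.09. Parp6 differed by 0.07 ± 0.10. Parp11 (0.37 ± 0.25) and Tiparp (-0.34 ± 0.26), an aryl hydrocarbon receptor target, had the widest differences, both with 95% intervals that included 0. For the 7 genes of ADP-ribose removal, with Oard1 at 0.16 ± 0.15 and Macrod2 at -0.12 ± 0.16, the median was 0.01. For 14 genes of NAD synthesis and use it was -0.02, with 6 higher and 8 lower. Sirt3, a mitochondrial NAD-dependent deacylase, was the 1 gene of these whose groups did not overlap (0.21 ± 0.12, background 0.732%), and Sarm1, a NAD hydrolase of axons, was at 0.32 ± 0.22.

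DNA repair and p53 target genes are given next. In base excision and single-strand break repair, the pathway PARP1 serves most directly, 11 of 17 genes were higher, 6 lower and 0 at an unadjusted p under 0.05, with a median of 0.04 that ran from 0.0056 without mouse 6 to 0.14 without mouse 10. The glycosylases Nthl1 and Ung were at 0.62 ± 0.36 and 0.46 ± 0.29, the ligase Lig1 at -0.32 ± 0.22 and the endonuclease Apex1 at -0.12 ± 0.13. In double-strand break repair 8 of 20 were higher and 12 lower. Brca1, which acts in homologous recombination, was at 4.31, 4.86, 4.31 and 4.37 CPM in EtOH and 2.77, 3.30, 3.58 and 3.39 CPM in EtOH + ABT-888. The groups did not overlap, the log2 fold change was -0.46 ± 0.19 (unadjusted quasi-likelihood p 0.0355, beside 0.654% of all genes lower without overlap and 1.07% lower at an unadjusted p under 0.05), and Control, at 2.33, 3.58 and 2.36 CPM, was on the side of EtOH + ABT-888. Among 20 p53 targets the median was 0.04 (-0.05 without mouse 10), with 12 higher and 8 lower. The cyclin-dependent kinase inhibitor Cdkn1a was at 59.2, 71.8, 71.4 and 41.5 CPM in EtOH, 22.9, 41.2, 106 and 41.1 CPM in EtOH + ABT-888 and 14.2, 16.8 and 14.4 CPM in Control. The EtOH + ABT-888 libraries ran from mouse 3, nearest to Control, to mouse 10, above every EtOH library. Fas, a death receptor, was at 0.55 ± 0.35.

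Glucocorticoid-induced genes, the list farthest above Control in both treated groups, hardly separated them. The median was -0.08 over 21 genes, with 7 higher and 14 lower in EtOH + ABT-888. The medians against Control were 1.43 for EtOH and 1.39 for EtOH + ABT-888, with 21 and 4 genes past an adjusted p of 0.05 (edgeR quasi-likelihood, background 17.6% and 0.263%), comparisons that share the 3 Control libraries. Fkbp5, a co-chaperone that restrains the glucocorticoid receptor, was at 106, 110, 107 and 105 CPM in EtOH and 73.6, 102, 99.9 and 76.3 CPM in EtOH + ABT-888, with Control at 31.3, 27.0 and 37.4 CPM. EtOH + ABT-888 mice 3 and 11 were lower than the rest and mice 6 and 10 just under the EtOH range. The log2 fold change was -0.28 ± 0.13 (unadjusted quasi-likelihood p 0.0474). Fkbp5 was the 1 member lower without overlap and the 1 member at an unadjusted p under 0.05, beside 0.654% and 1.07% of all genes. Ddit4, an mTORC1 inhibitor, was at -0.26 ± 0.19, Tsc22d3 (GILZ) at 0.16 ± 0.18 and Angptl4 at 0.40 ± 0.47. The list score in EtOH + ABT-888 ran from -0.73 in mouse 3 to 0.47 in mouse 10, while EtOH ran from -0.21 to 0.26. Leaving out mouse 3 gave a median of 0.04 and leaving out mouse 10 gave -0.20, so its sign rests on which library is used. Circadian clock genes, several of which respond to glucocorticoids, had a median of -0.07 (0.09 without mouse 3 and -0.23 without mouse 10), with Npas2 at -0.22 ± 0.13 and Dbp at 0.17 ± 0.16.

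Immediate early genes code for transcription factors and effectors that are induced within minutes of neuronal firing. Of 23 members, 4 were higher and 19 lower in EtOH + ABT-888 (50.2% and 49.8% of all genes), with a median of -0.19, but the scores overlapped widely, from -0.53 to 0.64 in EtOH and from -0.39 to 0.48 in EtOH + ABT-888. The median went to -0.02 without EtOH mouse 2 and to -0.40 without EtOH mouse 9. Jun, a subunit of the AP-1 factor, was the only member at an unadjusted p under 0.05, and it was higher, beside 0.839% of all genes. It was at 46.0, 48.7, 47.2 and 70.2 CPM in EtOH, 79.0, 83.9, 65.9 and 66.3 CPM in EtOH + ABT-888 and 45.7, 44.4 and 48.5 CPM in Control (log2 fold change 0.48 ± 0.16, unadjusted quasi-likelihood p 0.00957). EtOH mice 2, 5 and 8 were at the Control level, and EtOH mouse 9 lay within the EtOH + ABT-888 range. Ier2 was at 0.39 ± 0.25, while Fosb, a partner of Jun, was at -0.76 ± 0.36 and Egr4 at -0.66 ± 0.33. Fos, the other classical AP-1 gene, was at 22.98, 12.2, 31.3 and 3.54 CPM in EtOH and 28.6, 5.82, 14.1 and 5.11 CPM in EtOH + ABT-888. Both groups spanned several-fold, and the log2 fold change was -0.39 ± 0.60.

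The promoters of Jun, the member at an unadjusted p under 0.05, and of its partner gene Fos are shown as the sequence context of these genes (RefSeq, GRCm38.p6, from 250 bases before to 50 bases after the start site, read on the strand of the gene). The window of Jun is chr4:95052173-95052472, minus strand, and that of Fos is chr12:85473640-85473939, plus strand. Capitals mark TGACATCA, the AP-1-like site of the Jun promoter, and TGACG, the core bound by CREB family factors. Both strands were searched for these and for the full cAMP response element TGACGTCA, which contains TGACG.
Jun: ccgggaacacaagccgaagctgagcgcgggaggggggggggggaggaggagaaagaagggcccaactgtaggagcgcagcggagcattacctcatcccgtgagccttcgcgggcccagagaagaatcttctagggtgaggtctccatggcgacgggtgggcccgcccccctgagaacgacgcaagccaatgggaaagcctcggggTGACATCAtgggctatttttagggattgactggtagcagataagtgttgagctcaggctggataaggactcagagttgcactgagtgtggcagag
Fos: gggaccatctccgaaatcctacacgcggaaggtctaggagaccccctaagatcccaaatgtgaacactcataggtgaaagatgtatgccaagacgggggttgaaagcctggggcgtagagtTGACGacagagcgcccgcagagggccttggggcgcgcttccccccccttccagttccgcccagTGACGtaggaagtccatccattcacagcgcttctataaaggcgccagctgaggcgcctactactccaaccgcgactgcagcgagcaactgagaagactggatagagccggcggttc
Jun held TGACATCA at position -45 from the start site and no TGACG. Fos held TGACG at positions -129 and -66. Neither held TGACGTCA. Over 32851 promoter windows of this length, 3.62% held TGACATCA, 20.8% held TGACG and 1.79% held TGACGTCA, so the TGACG core is a common sequence. The windows were not compared with the changes. The match of a motif is a description of these letters, and no binding was measured.

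Inflammation genes varied widely within both treated groups. Over 14 tested NF-κB and inflammation targets (of 20), 8 were higher and 6 lower, with a median of 0.13. The median of 0.13 was -0.12 without EtOH + ABT-888 mouse 6 and 0.44 without EtOH mouse 2. The medians against Control were 1.06 for EtOH and 1.14 for EtOH + ABT-888, with 8 and 1 genes past an adjusted p of 0.05 by quasi-likelihood (background 17.6% and 0.263%). Saa3, an acute-phase serum amyloid, was at 36.9, 0.384, 17.7 and 0.092 CPM in EtOH, 0, 3.49, 0.888 and 1.33 CPM in EtOH + ABT-888 and 0 in all 3 Control libraries. EtOH mice 2 and 8 were far above the rest, and EtOH mice 5 and 9 were within the EtOH + ABT-888 range. The log2 fold change of -3.29 ± 1.28 (unadjusted quasi-likelihood p 0.0243) therefore came from 2 EtOH libraries. Lcn2 (lipocalin 2), another acute-phase gene, was at 37.7, 16.1, 53.8 and 2.12 CPM against 0.968, 46.5, 69.6 and 24.2 CPM, with EtOH mouse 9 and EtOH + ABT-888 mouse 3 lowest in their groups and Control at 0.359 ± 0.383 CPM. Vcam1, Il1r1 and Ptgs2 were at 0.32 ± 0.23, 0.26 ± 0.19 and -0.32 ± 0.30. Of 26 interferon-stimulated genes only 15 had enough counts, 4 higher and 11 lower, with a median of -0.09 that was 0.08 without EtOH mouse 2. Their medians against Control were 0.22 and 0.05, with 0 genes past an adjusted p of 0.05 by quasi-likelihood in either group (background 17.6% and 0.263%). Their log2 fold changes ran from -1.0999 ± 0.52 for Gbp2, a guanylate-binding GTPase, to 0.30 ± 0.23 for Stat2.

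Among the signalling lists, those of insulin and mTOR were evenly split. The insulin receptor to FoxO list had 14 genes higher and 13 lower with a median of 0.01, and mTOR control had 11 and 11 with a median of 0.01. Irs4, an insulin receptor substrate abundant in hypothalamus, was at 7.28, 0.991, 0.963 and 2.30 CPM in EtOH and 0.553, 0.970, 0.922 and 0.665 CPM in EtOH + ABT-888. EtOH mouse 2 had the highest value, mouse 9 was next, and mice 5 and 8 were at the top of the EtOH + ABT-888 range. The log2 fold change was -1.91 ± 0.59. Over the insulin receptor to FoxO list 1 member was higher and 1 lower at an unadjusted p under 0.05, beside 0.839% and 1.07% of all genes. Pik3cd, a catalytic subunit of PI3 kinase, was at 12.4, 13.01, 13.6 and 16.98 CPM against 23.96, 25.3, 13.9 and 16.3 CPM (0.50 ± 0.20), high in mice 3 and 6 alone. Over the cAMP and CREB list 12 were higher and 16 lower, none at an unadjusted p under 0.05, with Adcy1 at 0.21 ± 0.11 and Prkar2b at -0.24 ± 0.13. In ethanol metabolism 9 of 10 tested genes were higher and none at an unadjusted p under 0.05, with a median of 0.14 (0.09 without EtOH mouse 9), beside 50.2% of all genes above 0. Acss2, which turns acetate into acetyl-CoA, was at 22.7, 22.7, 31.4 and 23.4 CPM in EtOH and 31.7, 33.1, 28.6 and 29.3 CPM in EtOH + ABT-888 (0.29 ± 0.14), with Control at 37.4, 33.1 and 33.1 CPM. EtOH mouse 8 was within the range of EtOH + ABT-888 and the other EtOH libraries below it. In cholesterol synthesis 14 of 22 were higher, all 22 intervals lay within a 2-fold change, and the median was 0.13. The medians against Control were -0.53 for EtOH and -0.26 for EtOH + ABT-888, with 12 and 0 genes past an adjusted p of 0.05 by quasi-likelihood (background 17.6% and 0.263%). Without mouse 3 the median of the list was 0.02, and without EtOH mouse 8 it was 0.23.

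Protein-folding stress genes are given as lists, beside 50.2% of all genes above 0. In the integrated stress and unfolded protein response 12 of 15 were higher, none at an unadjusted p under 0.05, with a median of 0.09 (0.14 without EtOH mouse 9), led by the endoplasmic reticulum proteins Pdia4 (0.33 ± 0.17) and Sdf2l1 (0.47 ± 0.28). In the heat shock and cold-inducible list 17 of 21 were higher with a median of 0.06, which was -0.03 without mouse 10. The small heat shock protein Cryab was at 0.37 ± 0.19 and the cold-inducible RNA-binding proteins Cirbp and Rbm3 were at -0.42 ± 0.32 and -0.24 ± 0.20. Of 45 tested replication-dependent histone genes 35 were higher, 3 of them at an unadjusted p under 0.05 (background for higher genes 0.839%), with a median of 0.14 that was 0.01 without mouse 6. These genes share near-identical sequence and are weakly represented in RNA of non-dividing tissue, so their counts are uncertain. The DNA methylation and histone modification list had a median of -0.01, with Tet2, a 5-methylcytosine dioxygenase, at -0.36 ± 0.16 and Hdac9 at 0.32 ± 0.17. Its Tet2 levels were highest in EtOH mice 2 and 5, at 82.6 and 94.3 CPM, with 59.7 and 61.6 CPM in mice 8 and 9 and 52.2 to 68.3 CPM in EtOH + ABT-888. The lists that make up much of the library were at -0.03 for 77 cytosolic ribosomal proteins, 0.03 for 77 nuclear-encoded oxidative phosphorylation genes and -0.09 for 13 mitochondrially encoded mRNAs, the last 0.11 without mouse 3 and -0.35 without mouse 10.

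Receptors, channels and peptides of neurons were described as families. Glutamate receptors had 12 genes higher and 12 lower with a median of -0.02. Grm2, a presynaptic metabotropic receptor, was at 23.2, 19.6, 17.6 and 26.3 CPM in EtOH and 31.2, 33.0, 22.7 and 27.1 CPM in EtOH + ABT-888 (log2 fold change 0.39 ± 0.17), where only mouse 10 lay inside the EtOH range. Grik4 was at 0.32 ± 0.14, Grin2d at -0.41 ± 0.20 and Gria1 at -0.16 ± 0.09. GABA receptors had a median of 0.00. Gabrq, the theta subunit, was at 6.86, 1.44, 2.51 and 4.42 CPM against 1.80, 1.01, 1.57 and 0.998 CPM (-1.50 ± 0.43), with EtOH mouse 2 highest and EtOH mouse 5 within the EtOH + ABT-888 range. Potassium channels had 18 higher and 9 lower with a median of 0.02 (0.0014 without mouse 3 and 0.12 without EtOH mouse 9), and Kcnn1, a calcium-activated channel, was the 1 member at an unadjusted p under 0.05 (0.36 ± 0.15, no overlap, beside 0.839% and 0.732% of all genes). Synaptic vesicle fusion had a median of 0.01, with Stx1a as above. Axon guidance was split 33 and 33, with the Eph receptors Ephb2 at 0.47 ± 0.17 and Ephb6 at 0.39 ± 0.15 and Nrp2 at -0.52 ± 0.25.

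Neuropeptides were lower for 12 of 16, with a median of -0.16, and 4 of them (Tac1, Trh, Nts and Penk) at an unadjusted p under 0.05, beside 49.8% of all genes below 0 and 1.07% lower at that p. Tac1, the precursor of substance P, was at 100.2, 93.0, 71.3 and 64.1 CPM in EtOH and 61.2, 37.9, 60.2 and 64.6 CPM in EtOH + ABT-888 (log2 fold change -0.56 ± 0.19). EtOH mice 2 and 5 were high and EtOH mouse 9 was level with EtOH + ABT-888 mouse 11. Trh, thyrotropin-releasing hormone, was at 2.31, 2.21, 1.55 and 1.61 CPM against 0.588, 0.970, 1.13 and 1.48 CPM, without overlap (-0.88 ± 0.31). Nts (neurotensin) at 11.4 CPM and Penk (proenkephalin) at 543 CPM had their highest values in EtOH mouse 2 and EtOH mouse 5. These mice also had the highest summed septum, basal forebrain and hypothalamus markers (399.6 and 260.6 CPM). Mouse 5 had the highest summed striatal markers (2266 CPM). Whether the peptides and these markers go together was not tested. Without EtOH mouse 2 the median of the neuropeptide list was -0.04. Cck, the peptide of many cortical neurons, was in the other direction, at 124, 95.5, 204 and 122.96 CPM against 211, 140, 191 and 166 CPM (0.37 ± 0.21). Among 23 neuropeptide receptors 9 were higher and 14 lower, with Npy2r at -0.75 ± 0.27 and Trhr2 at 0.69 ± 0.31.

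The labelled tissue was checked against its markers. Excitatory neuron markers summed to 4250 to 5147 CPM in EtOH and 4545 to 5285 CPM in EtOH + ABT-888, so excitatory neuron RNA was present in every library. Their median was 0.16 (0.07 without EtOH mouse 9), with 6 of 8 higher. Markers of layers 2/3 and 4, layer 5 and layer 6 had medians of 0.08, 0.07 and -0.18. Leaving out 1 library gave 0.03 (EtOH mouse 2) to 0.16 (EtOH mouse 9) for the first, 0.04 (EtOH mouse 8) to 0.18 (EtOH mouse 9) for the second, and -0.25 (EtOH mouse 2) to -0.09 (EtOH mouse 5) for the last. Inhibitory interneuron markers had a median of -0.08, with 4 of 14 higher, and -0.0004 without EtOH + ABT-888 mouse 6. Striatal projection neuron markers were lower for all 12 members, with a median of -0.28 and 3 of them (Six3, Isl1 and Ppp1r1b) at an unadjusted p under 0.05, beside 49.8% and 1.07% of all genes. They summed to 1672, 2266, 1564 and 1866 CPM in EtOH and 1803, 1277, 1410 and 1698 CPM in EtOH + ABT-888. EtOH mouse 5 was the highest, and without EtOH mouse 5 the median was -0.16, and without EtOH mice 2 and 5 it was -0.13. Isl1 was at 7.61 and 7.51 CPM in these mice against 3.27 and 4.56 CPM in mice 8 and 9 and 3.03 to 4.11 CPM in EtOH + ABT-888. Choroid plexus markers were low and uneven (5 of 12 tested), with a median of -0.22 (-0.07 without EtOH mouse 9) and Ttr at 1.67 ± 0.82. Olfactory bulb markers had 3 of 6 tested, all lower, with a median of -0.27 (-0.44 without EtOH mouse 9), and blood markers had 5, all lower, with a median of -0.38 (-0.06 without EtOH mouse 8) and summed levels of 54.9 to 120.1 CPM in EtOH and 47.1 to 75.1 CPM in EtOH + ABT-888.

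Glial and vascular markers varied widely among the mice of one group. Microglia markers were higher for 11 of 15, with a median of 0.37, and 2 of them at an unadjusted p under 0.05, beside a background of 0.839% for higher genes. Their summed level was 344.7, 236.0, 353.4 and 283.9 CPM in EtOH, 429.9, 330.3, 246.3 and 373.4 CPM in EtOH + ABT-888 and 495.8 to 515.0 CPM in Control. EtOH + ABT-888 mouse 3 lay nearest to Control and mouse 10 near the bottom of the EtOH range. Cx3cr1, the fractalkine receptor of microglia, was at 7.91, 9.72, 5.82 and 17.3 CPM in EtOH, 36.9, 18.5, 0.751 and 22.9 CPM in EtOH + ABT-888 and 55.6, 60.1 and 52.2 CPM in Control. EtOH + ABT-888 mice 3, 6 and 11 were above every EtOH library and mouse 10 was below them all, so that the log2 fold change was 0.96 ± 0.69 (95% interval -0.53 to 2.45). P2ry13, a purinergic receptor, was likewise above every EtOH library in mice 3, 6 and 11 and below them in mouse 10, with 3.06, 2.75, 2.51 and 3.68 CPM against 7.85, 6.44, 1.43 and 6.14 CPM (0.87 ± 0.40, unadjusted quasi-likelihood p 0.0489), and Control at 12.8, 12.1 and 14.8 CPM. Trem2, a lipid-sensing receptor, was at 1.56, 1.98, 2.56 and 1.98 CPM against 5.88, 2.02, 2.42 and 4.23 CPM (0.86 ± 0.34), high in mice 3 and 11. The complement genes C1qa, C1qb and C1qc and the protease Ctss were the 4 members below 0, from -0.14 ± 0.26 for C1qa. The median of the list was 0.07 without mouse 3 and 0.72 without mouse 10, so its size rests on those libraries.

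**Figure D4:**
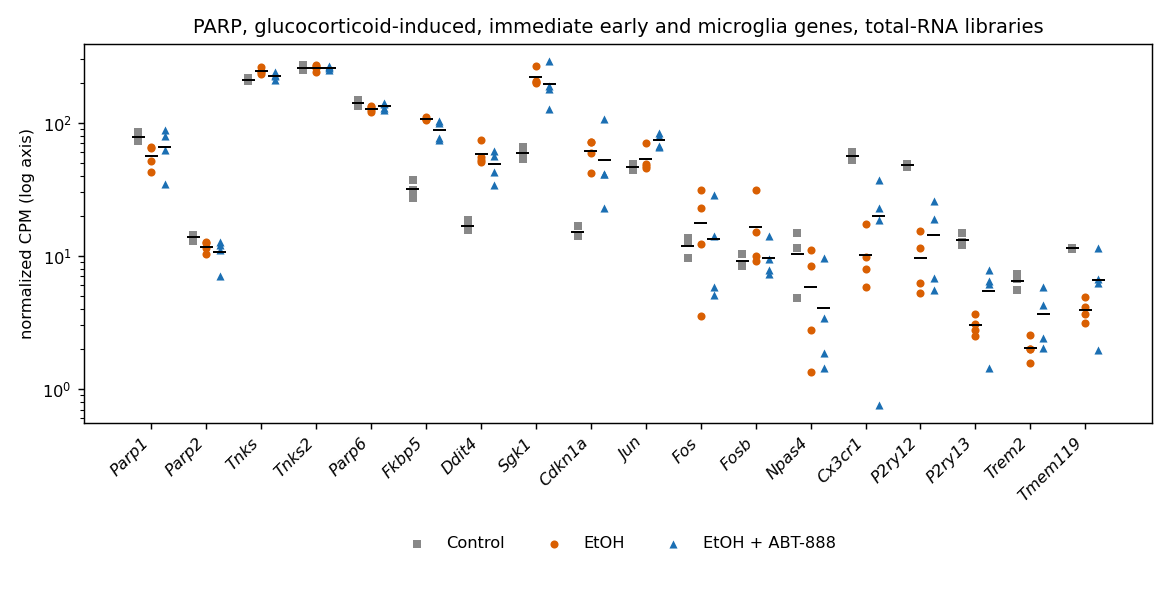
Normalized CPM (log axis) of PARP, glucocorticoid-induced, immediate early and microglia genes in the 3 Control libraries and the 4 libraries of either treated group (total RNA), with a black line at each group mean. EtOH and EtOH + ABT-888 points overlap for every PARP gene drawn, Fkbp5 is high in both treated groups (105 to 110 and 73.6 to 102 CPM against 27.0 to 37.4), and Cx3cr1 spreads from 0.751 to 36.9 CPM within EtOH + ABT-888.

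Meningeal fibroblast markers were higher for 10 of 11, with a median of 0.49, again by way of mouse 3. Their summed level was 146.4, 102.4, 94.1 and 114.9 CPM in EtOH, 214.6, 120.0, 120.5 and 112.8 CPM in EtOH + ABT-888 and 136.5 to 148.0 CPM in Control. Without mouse 3 the median was 0.11. Slc22a6, an organic anion transporter of meninges, was at 2.04, 2.27, 1.76 and 4.37 CPM against 12.2, 5.16, 1.54 and 5.17 CPM (log2 fold change 1.21 ± 0.50), with mouse 10 below every EtOH library. Igfbp2, an insulin-like growth factor binding protein, was at 10.7, 9.14, 7.92 and 10.1 CPM against 21.9, 12.4, 13.8 and 8.38 CPM (0.57 ± 0.25). Mural cell markers had a median of 0.31, with 7 of 8 higher, and 0.09 without mouse 3. Endothelium markers had a median of 0.00 but unlike members. Cdh5, the VE-cadherin of endothelial junctions, was at 11.4, 10.6, 9.72 and 8.70 CPM against 11.8, 18.4, 21.3 and 10.4 CPM (0.60 ± 0.22). Slco1a4, an organic anion transporter of the blood-brain barrier, was at 39.5, 22.8, 26.8 and 21.03 CPM against 16.9, 23.5, 5.97 and 15.8 CPM (-0.83 ± 0.33). Mouse 10 had both the highest Cdh5 and the lowest Slco1a4 of the 8 libraries. Extracellular matrix genes had 18 of 24 higher with a median of 0.16, and 0.0071 without mouse 3, though Sparc, a matricellular protein, was lower (-0.38 ± 0.15). Oligodendrocyte markers were higher for 11 of 12 with a median of 0.11 (0.31 without mouse 6 and 0.03 without mouse 11). Their sums were 2687 to 3317 CPM in EtOH and 3431, 1904, 3826 and 3543 CPM in EtOH + ABT-888, so mouse 6 lay below the EtOH range and the other 3 above it. Oligodendrocyte precursor and astrocyte markers had medians of 0.17 (0.03 without mouse 3) and -0.04 (-0.0058 without mouse 11 and -0.10 without mouse 10).

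No class of transcript differed in its share of counts past the test. Protein-coding genes took 92.5% ± 1.30 of counts in EtOH and 92.8% ± 1.88 in EtOH + ABT-888 (SD, n = 4 each), mitochondrial transcripts 6.10% ± 1.33 and 5.87% ± 1.77, long non-coding RNAs 1.05% ± 0.159 and 0.964% ± 0.0946, and the 10 genes with the most counts 7.89% ± 1.39 and 7.65% ± 1.84. Over 5 classes the two-sided exact permutation test gave p = 0.457 to 0.886 and an adjusted p of 0.886 for each, where 0.0286 is the smallest p that 4 against 4 can give.

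The matched TRAP libraries of the same mice gave the same count of calls. There, EtOH + ABT-888 against EtOH had 0 of 14072 genes past an adjusted p of 0.05 by quasi-likelihood, with 136 at an unadjusted p under 0.05 (0.966%). The test of whether the ABT-888 difference itself depended on the sample type had 0 as well, with 124 genes (0.881%) at an unadjusted p under 0.05. Htr2c was at -0.01 in TRAP against -0.68 in total RNA, and Baiap3 at -0.53 against -1.40. The septum, basal forebrain and hypothalamus markers had a TRAP median of -0.40, the striatal markers 0.05, the meningeal fibroblast markers 1.09, the oligodendrocyte markers 0.98 and the interferon-stimulated genes -0.64. Both sample types come from the same 8 mice and tissue pieces, so they are given side by side and not as separate evidence.

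**Figure D5:**
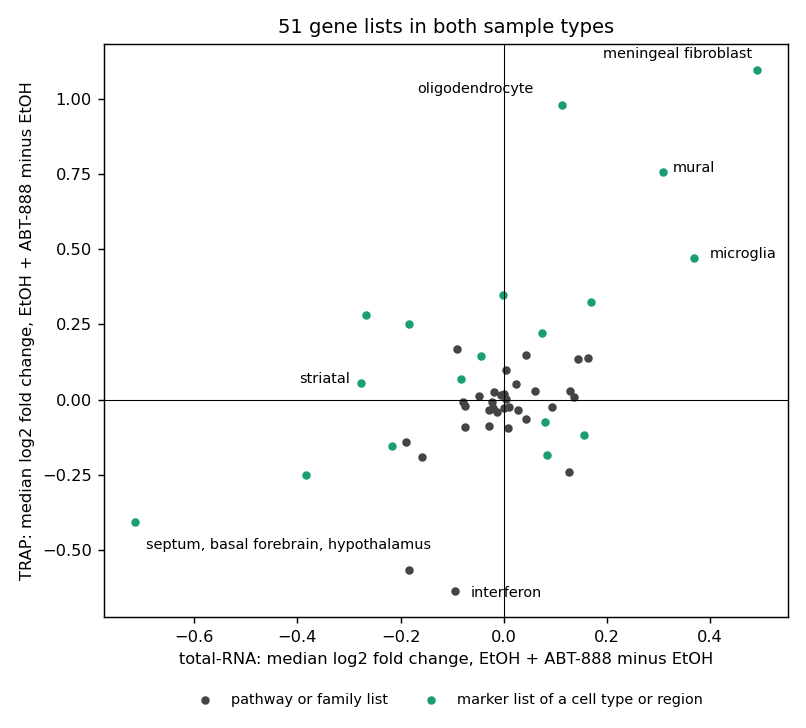
Median log2 fold change (EtOH + ABT-888 minus EtOH) of the 51 gene lists in total-RNA (x axis) and in TRAP libraries (y axis) of the same 8 mice, with pathway or family lists in grey and marker lists in green. Most lists lie near 0 on both axes, the meningeal fibroblast markers at 0.49 and 1.09 and the septum, basal forebrain and hypothalamus markers at -0.71 and -0.40.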

How the data were processed

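The PFC of 11 mice was sequenced, with both a total-RNA and a TRAP library from each mouse. The authors removed ribosomal RNA, made CORALL libraries, sequenced 2 × 50 bases, aligned to mm10 with STAR and counted reads per gene with featureCounts, and the counts they deposited are raw read counts per gene. Tool versions and the strand setting of the counting are not given in the sources used here. Of 39056 genes, the 14072 with at least 500 counts over the 22 libraries and detected in at least 3 were tested; the other 24984 were left out. Low genes have wide intervals at this depth, and intervals cover the spread between mice. Gene coordinates and types come from GENCODE M21, with 184 identifiers not found.

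EtOH + ABT-888_total-RNA and EtOH_total-RNA were compared with the quasi-likelihood test of edgeR, using TMM factors and Benjamini-Hochberg adjustment, on the 8 libraries (R 4.3.3, edgeR 4.0.16). Replicates are separate mice. Level plots and log2 CPM use a prior count of 1. Alternatives were exactTest, DESeq2 1.42.0, limma 3.58.1 voom with sample weights, RLE factors, other filters, other sets of libraries and leaving out each library. TRAP and total-RNA libraries are paired by mouse; deviations from group means correlated at 0.117 to 0.622 within each of the 8 mice. No pair of the 8 libraries looked like a duplicate by the mean chi-square statistic of counts per gene, which ran from 13.02 to 133.8. No test was applied to it.

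Named genes were those past an adjusted p of 0.05 by any tool, the 12 protein-coding genes with the smallest p in each direction among those without overlap, for each list described, members from among the 2 with the smallest p in each direction, and Parp1, Parp2 and the PARP genes with most counts. Other members named or plotted (such as Cx3cr1, Fos, Lcn2, Nts and Penk) were chosen after their values were seen. The gene lists, members and marker sets were chosen with earlier results of these data known. A few single-gene results are not reported here.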

Additional observations from a re-analysis of the deposited data

Results flagged for a closer look

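A Dixon test of each group of 4 libraries at its 95% critical value marked 11 of 162 sets of values, where chance marks about 1 in 20. In EtOH they were the PARP family score of mouse 2 (0.1433, others -0.04951 to -0.03283), the ependyma score of mouse 8 (-0.3547), the olfactory bulb score of mouse 9 (-0.1382), Slc13a4 in mouse 8 (7.707 CPM, others 11.02 to 11.41) and Lmo7 in mouse 5 (183.2 CPM, others 157.4 to 161.1). In EtOH + ABT-888 they were the interneuron score of mouse 6 (-0.1859), the oligodendrocyte score of mouse 6 (-0.6731, others 0.2093 to 0.333), the ependyma score of mouse 11 (0.3423), Baiap3 in mouse 10 (2.834 CPM, others 4.718 to 4.968), Lmo7 in mouse 3 (89.1 CPM, others 125.2 to 131.4) and the lncRNA share of mouse 10 (1.106% of counts, others 0.9052 to 0.9275%). Scores are mean log2 CPM relative to the mean over the 8 libraries.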

How the results depend on the processing

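The count of genes past an adjusted p of 0.05 was 0 in the quasi-likelihood test and stayed 0 under voom, RLE factors, both other filters, fits over 11 and 22 libraries, each left-out library and the settings chosen after seeing the data; exactTest and DESeq2 gave 2. The count at an unadjusted p under 0.05 was 269 and was 874 under voom, 852 without a filter (27795 genes), 411 in the fit over 11 libraries and 110 in that over 22. Leaving out 1 library gave 171 (without EtOH mouse 2) to 1274 (without EtOH + ABT-888 mouse 10, 717 higher and 557 lower), with 471 without EtOH mouse 9. Chosen after seeing the data, leaving out EtOH mice 2 and 5 gave 125 and leaving out EtOH + ABT-888 mice 3 and 10 gave 649. With the mouse as a replicate block, the interaction with sample type stayed at 0 genes and had 278 rather than 124 at an unadjusted p under 0.05. Over the 51 list medians, 33 recomputed values moved by more than the spread, and 936 did not, though medians near 0 could change sign within it. A fit with the septum, basal forebrain and hypothalamus marker score as a covariate (chosen after seeing the data) gave 219 genes at an unadjusted p under 0.05, 98 of them lower; that score separates the groups, so the fit adjusts away part of the group difference by construction and nothing is read from it. The differences in class shares (percentage points, EtOH + ABT-888 minus EtOH) changed sign with single libraries left out in 4 of 5 classes; lncRNA stayed below 0, from -0.129 to -0.00398 (without EtOH mouse 5), with -0.082 over all 8. Protein-coding ran from -0.403 to 1.02 (-0.171 without EtOH mouse 8, -0.403 without EtOH + ABT-888 mouse 3). Mitochondrial ran from -0.873 to 0.464 (0.286, 0.464 and 0.0317 without EtOH mouse 8 and EtOH + ABT-888 mice 3 and 6). Other classes ran from -0.0189 to 0.0021 (0.0014, 0.0021 and 0.0012), and the 10 genes with most counts from -0.960 to 0.437 (0.299, 0.437 and 0.0582). The cause of these changes was not tested.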
